A study of Mus musculus with 12 samples.

Results

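The serpins are a family of protease inhibitors, and their expression was compared here in 2 kinds of pancreatic ductal organoid and in freshly isolated pancreatic acini. Members were the mouse genes whose name begins with Serpin and that had at least 1 array probe set carrying that single gene symbol; where a gene had several such probe sets (12 genes), the brightest on average stood for it. This gave 40 serpin genes of 18194 genes on the array, 14 of them in clade A, 18 in clade B and 8 in other clades, and all 40 matched a gene of the same name in the RefSeq mouse annotation.

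The samples were yDucts, Ducts and Acini, with 4 arrays in each group, lettered A to D. yDucts were organoids grown out of R26-rtTA; tetO-YAP S127A acini, in which doxycycline had switched on an activated form of the transcriptional coactivator YAP through a transactivator at the broadly active Rosa26 locus, and which were afterwards passaged without the drug. Ducts were organoids started from duct fragments picked from the pancreas and carry no mention of a transgene. Acini were freshly isolated exocrine tissue; the study's text speaks of them as the parental cells of yDucts and isolated acini from adult mice, but the labels of the Acini and Ducts arrays give neither strain nor genotype. Both organoid groups were kept in Matrigel under the same growth-factor medium and Acini were never cultured, so that cell type and culture cannot be told apart in a comparison with Acini. The labels call the arrays biological replicates without naming separate animals, so p-values reflect only how much these arrays vary.

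Serpins share a fold with an exposed reactive loop, which a target protease cuts as bait; the inhibitor then snaps shut and holds the protease in a covalent complex that receptors clear. Clade A serpins are secreted, many of them by the liver, whereas clade B serpins lack a classical signal peptide and act mostly inside cells, where they meet granzymes, cathepsins and other proteases that have gone astray. Some members no longer inhibit anything: Serpinh1 is a collagen chaperone, Serpina7 carries thyroid hormone and Serpinb5 is a non-inhibitory epithelial serpin. In the pancreas, acinar cells make digestive proteases together with inhibitors of them, and Serpini2 (pancpin) is a serpin known from that tissue, whose loss in mice damages acinar cells.

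The promoters of 4 members whose values are described below are printed here, because they include the gene with the largest fall, a pair of neighbouring genes that rose together and the gene that separated yDucts from the other groups. Each runs 5′ to 3′ from 250 bases before the start listed by RefSeq to 50 bases after it, in build GRCm38.p6. Capitals mark E-boxes (CANNTG, the motif of basic helix-loop-helix factors such as Ptf1a) in Serpini2, the RBPJ motif TGGGAA read on the opposite strand, as TTCCCA, in Serpinb6b and Serpinb9, and the TEAD motif GGAATG in Serpina7. E-boxes are marked in Serpini2 only. Unmarked ones lie in Serpina7, at -240, -116, -85, 25 and 41 bases from the listed start, and in Serpinb9, at -125.
Serpini2, chr3:75270029-75270328, minus strand: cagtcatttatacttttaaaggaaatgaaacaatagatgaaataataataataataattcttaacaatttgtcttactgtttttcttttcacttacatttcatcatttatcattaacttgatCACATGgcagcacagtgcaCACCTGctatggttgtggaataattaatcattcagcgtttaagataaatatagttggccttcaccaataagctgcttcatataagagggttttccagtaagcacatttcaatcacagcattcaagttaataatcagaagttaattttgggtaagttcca
Serpinb6b, chr13:32965011-32965310, plus strand: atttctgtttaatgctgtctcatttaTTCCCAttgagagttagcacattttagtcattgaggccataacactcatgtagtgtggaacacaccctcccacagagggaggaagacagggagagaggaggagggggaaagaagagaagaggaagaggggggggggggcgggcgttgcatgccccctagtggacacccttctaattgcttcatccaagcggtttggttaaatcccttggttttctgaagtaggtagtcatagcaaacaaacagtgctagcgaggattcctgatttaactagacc
Serpinb9, chr13:33004291-33004590, plus strand: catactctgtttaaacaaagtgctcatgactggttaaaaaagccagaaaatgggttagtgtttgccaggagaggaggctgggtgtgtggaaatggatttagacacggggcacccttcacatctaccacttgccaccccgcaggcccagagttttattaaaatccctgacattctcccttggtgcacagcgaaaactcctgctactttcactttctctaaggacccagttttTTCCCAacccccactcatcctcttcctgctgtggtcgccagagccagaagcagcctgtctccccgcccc
Serpina7, chrX:139085187-139085486, minus strand, 1 of 2 listed starts: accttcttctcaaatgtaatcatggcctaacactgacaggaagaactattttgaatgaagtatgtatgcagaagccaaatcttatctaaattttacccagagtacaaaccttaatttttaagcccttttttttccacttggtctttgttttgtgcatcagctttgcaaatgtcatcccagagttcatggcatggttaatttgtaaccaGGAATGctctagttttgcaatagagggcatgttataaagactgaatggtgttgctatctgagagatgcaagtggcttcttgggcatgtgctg

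Searched on both strands, CANNTG was in 72.3% of 32851 promoters of this length, TGGGAA in 25.6% and GGAATG in 14.7%, and among the 40 promoters listed for 34 matched members in 24, 12 and 9. The motif AAGGTCA of the NR5A receptors, was in 4.72% of all promoters and in 4 of the 40. These matches describe letters in a window and are not measured sites.

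The arrays gave log2 expression values, and a difference of 1 is a 2-fold change. A gene was tested if at least 4 arrays read it above their 30th percentile, which 14991 genes did; 29 of the 40 serpins passed, namely 10 of clade A, 11 of clade B and all 8 of the other clades. The 3 comparisons came from 1 limma model, and a gene is called here where the Benjamini-Hochberg adjusted p over all tested genes was under 0.05. The array-wide 30th percentile was 3.18 to 3.21 on yDucts, 3.19 to 3.23 on Ducts and 3.64 to 3.79 on Acini, so that dim genes read higher on Acini arrays, and the 3′ minus 5′ signal of the Gapdh control probe sets, a sign of RNA integrity, was -0.17 to -0.12, -0.07 to 0.02 and 1.29 to 1.91 in the same order; the part of either in the results was not tested. No array repeated another, but Ducts C and D stood apart from Ducts A and B. The means of these pairs differed by at least 1 on the log2 scale for 6 of the 29 tested serpins (20.7%) and for 10.2% of all tested genes. Among the 6, the pairs overlapped for Serpinb11 and Serpina9, where Ducts A alone was low. Named differences whose call changed, or whose fold moved by over 1.5 times, without either pair are also given without it.

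Most tested serpins were lower in the organoids than in Acini, and 5 of the 6 that were higher in yDucts belonged to the intracellular clade B. In yDucts against Acini, 6 of the 29 tested serpins were higher and 16 lower, where 43.6% of all tested genes were higher and 32.6% lower. All 6 increases were at least 2-fold, as were 11 of the decreases, against 32.5% and 18.0% of all tested genes. In Ducts against Acini, 6 were higher, all of them at least 2-fold, and 18 lower, 9 of them at least 2-fold; the shares of all tested genes were 42.7% higher (31.7% by at least 2-fold) and 33.1% lower (17.9% by at least 2-fold).

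The median difference over the tested serpins was -0.79 for yDucts and -0.71 for Ducts, beside medians of 0.24 and 0.21 over all tested genes. These counts depend on how the arrays are scaled: 7 serpins higher and 11 lower in yDucts, and 5 higher and 12 lower in Ducts, were called after quantile normalization, which moved the medians of all genes to -0.16 and -0.15. Under the same normalization, 4377 of all genes were higher and 5376 lower in yDucts, against 6534 higher and 4890 lower as deposited. In Ducts, these counts were 4264 and 5416, against 6395 and 4960. The falls that were lost under quantile normalization were all of dim genes of clade A, of Serpinb2, Serpinb8 and Serpinc1.

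By clade, 5 of the 11 tested clade B genes were higher in yDucts than in Acini, 2 were lower and 4 were not called, with a median difference of 0.40. In Ducts, 6 clade B genes were higher, 2 lower and 3 not called, with a median of 1.59. The clade B shares that were higher lie near those of all tested genes, 43.6% for yDucts and 42.7% for Ducts, so the counts of gains are no result about clade B; the shares of all tested genes that were lower were 32.6% and 33.1%. Of the 10 clade A genes, 1 was higher, 6 lower and 3 not called in yDucts (median -0.86), and 0 higher, 8 lower and 2 not called in Ducts (median -0.95). All 8 genes of the other clades, which are secreted or sit in the endoplasmic reticulum, were lower in both organoid groups, with medians of -2.04 and -3.04. After quantile normalization this held for 7 of 8 in each, the exception being Serpinc1, and under cyclic loess or median centring for 7 in yDucts and 6 in Ducts. With the mean of all probe sets it held for 7 in yDucts and 8 in Ducts. The exception there was Serpinh1 in yDucts (-0.85, limma adjusted p = 0.274), whose other probe set was 0.79 higher in yDucts than in Acini. Both comparisons use the same Acini arrays.

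**Figure D1:**
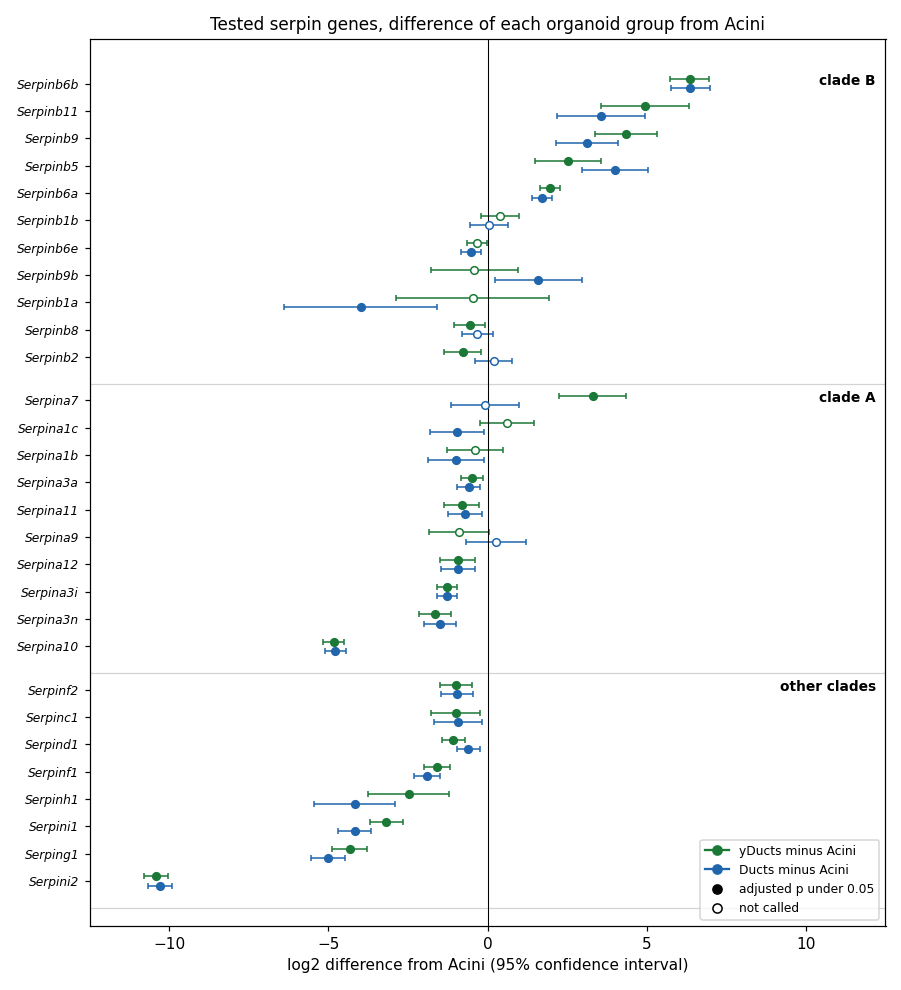
Log2 difference from Acini (x axis) for each of the 29 tested serpin genes (y axis), grouped by clade, for yDucts (green) and Ducts (blue), with 95% confidence intervals; filled points passed an adjusted p of 0.05. Serpinb6b lies farthest to the right, at 6.35 in yDucts and 6.37 in Ducts, and Serpini2 farthest to the left, at -10.42 and -10.29.

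Among the intracellular serpins, Serpinb6b showed the largest gain. This gene encodes an inhibitor of granzyme A in mice and lies in the clade B cluster of chromosome 13. Its log2 level was 10.58, 9.24, 10.43 and 10.39 on yDucts A to D and 10.05, 10.54, 10.25 and 9.87 on Ducts A to D, against 3.98, 3.55, 4.20 and 3.51 on Acini A to D. The organoid groups overlapped each other, and every organoid array was far above every Acini array, whose values sat near the 30th percentile. The difference from Acini was 6.35 ± 0.28 (SE; 81.6-fold, limma adjusted p = 1.29e-09) in yDucts and 6.37 ± 0.28 (82.6-fold, adjusted p = 1.24e-09) in Ducts.

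Serpinb9, the inhibitor of granzyme B that protects cytotoxic lymphocytes from their own granules, lies close to Serpinb6b on the same chromosome. It read 11.13, 8.69, 10.89 and 10.88 in yDucts and 9.23, 8.96, 9.46 and 9.13 in Ducts, against 5.33, 6.09, 6.47 and 6.37 in Acini. Organoids and Acini were fully separated; 3 yDucts arrays were above all Ducts arrays and yDucts B was below all of them. The gain was 4.33 ± 0.45 (SE; 20.1-fold, adjusted p = 2.15e-06) in yDucts and 3.13 ± 0.45 (8.75-fold, adjusted p = 3.78e-05) in Ducts. The second probe set of Serpinb9 showed the same order of arrays in yDucts, with 9.36, 6.52, 9.18 and 9.18, against 6.94, 6.74, 7.75 and 7.05 in Ducts and 4.22, 4.68, 4.24 and 3.72 in Acini.

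Serpinb6a, an inhibitor of cathepsin G that is found in many tissues, was already well expressed in Acini. Its level was 11.93, 11.52, 11.74 and 12.03 in yDucts and 11.39, 11.55, 11.73 and 11.58 in Ducts, against 9.68, 9.86, 9.86 and 10.01 in Acini. The organoid groups overlapped and lay above all Acini arrays. The difference was 1.95 ± 0.15 (SE; 3.87-fold, adjusted p = 1.46e-07) in yDucts and 1.71 ± 0.15 (3.27-fold, adjusted p = 4.57e-07) in Ducts; cyclic loess scaling reduced it to 0.92 and 0.67, still past the threshold.

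On chromosome 1, where the other tested clade B genes lie, Serpinb11 and Serpinb5 were higher in organoids. Serpinb11, which inhibits trypsin-like proteases in mice, had levels of 8.58, 8.15, 8.72 and 8.87 in yDucts and 4.69, 8.27, 8.38 and 7.44 in Ducts, against 3.12, 4.03, 3.23 and 4.13 in Acini. Ducts A was far below the other organoid arrays, yet above every Acini array. The Acini mean was below the 30th percentile, so the gain was at least 25.7-fold in yDucts (4.95 ± 0.64, SE; adjusted p = 1.43e-05) and at least 9.83-fold in Ducts (3.57 ± 0.64, adjusted p = 2.31e-04). Leaving out Ducts C and D gave 2.85 for Ducts, and leaving out Ducts A and B gave 4.28.

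Serpinb5 (maspin), an epithelial serpin studied in breast and prostate for its effects on cell adhesion and migration, was higher on average in Ducts than in yDucts, a difference that was not called. It stood at 5.85, 5.58, 6.23 and 7.22 in yDucts and at 8.33, 8.94, 7.08 and 6.45 in Ducts, against 3.91, 3.62, 3.45 and 3.80 in Acini. No organoid array overlapped Acini, whereas yDucts D was above Ducts C and D. Against Acini it was at least 5.48-fold higher in yDucts (2.53 ± 0.48, SE; adjusted p = 3.74e-04) and at least 15.3-fold higher in Ducts (4.0 ± 0.48, adjusted p = 7.76e-06; 4.94 without Ducts C and D, 3.07 without Ducts A and B), and its 3 further probe sets moved the same way.

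A pair of clade B genes divided the Ducts arrays. Serpinb1a, an inhibitor of the neutrophil proteases elastase, cathepsin G and proteinase 3, stood at 10.01, 8.23, 9.53 and 10.08 in yDucts and at 7.44, 9.56, 3.74 and 3.02 in Ducts, against 9.52, 10.07, 10.15 and 9.99 in Acini. Ducts C and D lay near the 30th percentile, while Ducts B lay within the range of Acini and yDucts. The called difference of Ducts from Acini, -3.99 ± 1.11 (SE; adjusted p = 0.00557), was -1.43 without Ducts C and D (adjusted p = 0.0438) and -6.55 without Ducts A and B. In yDucts the difference was -0.47, with a 95% interval of -2.88 to 1.94 (adjusted p = 0.709). A dimmer probe set of Serpinb1a read 4.83, 5.75, 4.29 and 4.27 on Ducts A to D, so that the Ducts arrays divided the same way but less far. Its group means were 6.14 in yDucts, 4.79 in Ducts and 6.80 in Acini. There the difference from Acini was -0.66 in yDucts and -2.015 in Ducts, and yDucts were 1.36 above Ducts.

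Serpinb9b, a close paralogue of Serpinb9, showed the opposite division. Its values were 5.72, 4.95, 5.24 and 5.31 in yDucts and 5.55, 6.18, 8.86 and 8.66 in Ducts, against 6.04, 6.04, 4.92 and 5.90 in Acini. Ducts C and D lay far above all other arrays, which spanned 4.92 to 6.18. The difference of Ducts from Acini, 1.59 ± 0.63 (SE, limma adjusted p = 0.0352), was 0.14 without Ducts C and D (adjusted p = 0.719) and 3.04 without Ducts A and B. The call was also lost on leaving out any 1 of 4 arrays, such as Acini C (1.32) or Acini D (1.65). In yDucts the difference was -0.42, with an interval of -1.78 to 0.94.

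**Figure D2:**
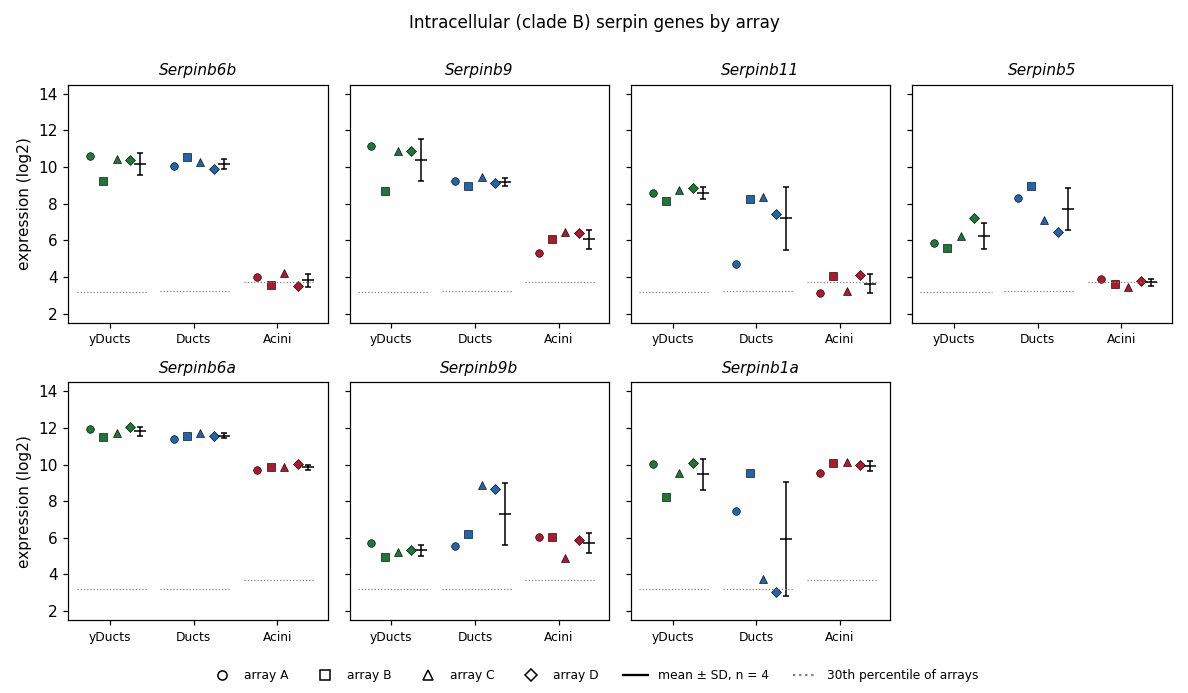
Log2 expression (y axis) of 7 clade B serpins on the 4 yDucts, 4 Ducts and 4 Acini arrays (x axis), with array letters as symbols, mean ± SD beside them and the group's 30th percentile as a dotted line. Serpinb6b, Serpinb9, Serpinb11, Serpinb5 and Serpinb6a are higher on every organoid array than on any Acini array, while Serpinb9b and Serpinb1a divide Ducts C and D from Ducts A and B.

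Of the remaining tested clade B genes, Serpinb2 (plasminogen activator inhibitor 2) was lower in yDucts than in Acini by -0.79, with both means below the 30th percentile, and Serpinb8, an inhibitor of furin, by -0.57. Neither call held after quantile normalization, cyclic loess or median centring, nor without Acini C alone (-0.60 and -0.45). That of Serpinb8 was lost on leaving out any 1 of 5 arrays, Acini C among them. Serpinb6e was lower in Ducts by -0.53, which was not called after median centring. Serpinb1b, the paralogue of Serpinb1a, was called in no comparison.

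Within yDucts, the clade B genes shared a low array. yDucts B was the lowest of the 4 yDucts arrays for 10 of the 11 tested clade B genes, the exception being Serpinb2, where for 29.5% of all tested genes yDucts B was the lowest. Its deviation from the group mean was -1.71 for Serpinb9, -1.23 for Serpinb1a, -0.92 for Serpinb6b and -0.09 for Serpinb6e. Of these 11 genes 7 lie in 1 cluster on chromosome 13, and several of them are close paralogues whose probe sets could share target sequence. Leaving yDucts B out changed the gain of no named clade B gene against Acini to below the threshold.

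**Figure D3:**
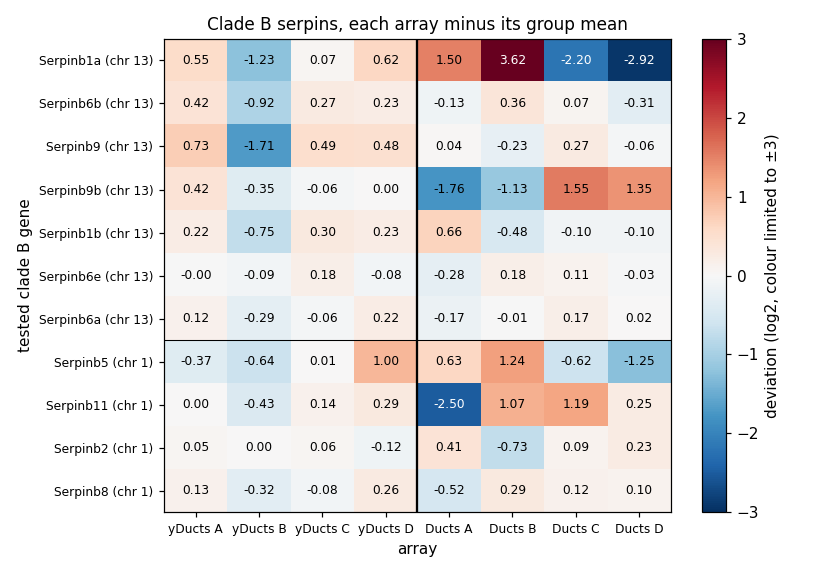
Deviation of each organoid array (x axis) from its own group mean, in log2 units printed in the cells and shown as colour, for the 11 tested clade B genes (y axis, with chromosome). The yDucts B column is negative for 10 genes, down to -1.71 for Serpinb9, and Ducts C and D oppose Ducts A and B in sign for Serpinb1a, Serpinb9b and Serpinb5.

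The serpin with the deepest fall was Serpini2, which in mice is needed to keep acinar cells alive. It read 2.83, 2.71, 2.71 and 2.81 in yDucts and 2.71, 2.7, 3.0 and 3.17 in Ducts, against 12.75, 13.32, 13.50 and 13.18 in Acini. All 8 organoid arrays lay below the 30th percentile. Since the gene passed the filter only through Acini, it could enter the test only as a difference of this kind. The fall was at least 1019-fold in yDucts (-10.42 ± 0.17, SE; adjusted p = 3.44e-14) and at least 1008-fold in Ducts (-10.29 ± 0.17, adjusted p = 4.04e-14).

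The digestive proteases fell with it. All 9 tested pancreatic serine protease genes, among them the trypsinogen Prss3 (at least 1384-fold lower in yDucts and 1370-fold in Ducts) and the chymotrypsin-like Ctrl, were lower in both organoid groups, with median differences of -9.45 and -9.51. Of 8 acinar cell markers all 8 were lower, their mean level lying at 3.31 to 3.42 on yDucts and 3.19 to 3.32 on Ducts arrays, against 12.33 to 12.45 on Acini arrays. Of 8 duct markers 5 were higher and 0 lower in each, with mean levels of 10.27 to 10.52, 10.09 to 11.48 and 8.2 to 8.48 in the same order. Over all tested genes, 43.6% were higher and 32.6% lower in yDucts, and 42.7% and 33.1% in Ducts. In whole samples, fewer cells of a type and less RNA per cell cannot be told apart.

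Serpini1 (neuroserpin), the close relative of Serpini2 that inhibits tissue plasminogen activator in neurons and lies on the same chromosome 3, also fell. Its level was 5.41, 5.03, 5.32 and 5.26 in yDucts and 4.54, 4.43, 3.59 and 4.44 in Ducts, against 8.06, 8.66, 8.84 and 8.17 in Acini. The 3 groups did not overlap, yDucts lying between Ducts and Acini on every array. The difference from Acini was -3.18 ± 0.23 (SE; 9.05-fold lower, adjusted p = 1.1e-07) in yDucts and -4.18 ± 0.23 (18.2-fold lower, adjusted p = 1.02e-08) in Ducts. The falls were smaller at a dimmer probe set, -1.21 and -2.02, and with the mean of all 3 probe sets, where they were -1.61 and -2.22 and were called; the third probe set averaged 2.09 in yDucts and 2.09 in Ducts, against 2.54 in Acini, below the 30th percentile.

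Among the secreted clade A genes, Serpina10 (the protein Z-dependent inhibitor of coagulation factor X) had the deepest fall. It gave 3.57, 3.69, 3.45 and 3.84 in yDucts and 3.59, 3.77, 3.87 and 3.54 in Ducts, against 8.16, 8.47, 8.63 and 8.63 in Acini. The organoid groups overlapped fully and sat just above the 30th percentile. The fall was 28.5-fold in yDucts (-4.84 ± 0.15, SE; adjusted p = 4.05e-11) and 27.5-fold in Ducts (-4.78 ± 0.15, adjusted p = 4.35e-11).

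Serpina3n, an acute-phase inhibitor of granzyme B and leukocyte elastase in mice, measured 4.24, 4.04, 4.05 and 4.0 in yDucts and 4.35, 4.09, 4.28 and 4.24 in Ducts, against 6.53, 5.84, 5.27 and 5.30 in Acini. The organoid arrays were uniform and the Acini arrays spread, without overlap. It was lower by -1.65 ± 0.24 (SE; 3.14-fold, adjusted p = 3.47e-05) in yDucts and -1.50 ± 0.24 (2.82-fold, adjusted p = 8.31e-05) in Ducts.

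Serpina3i, of the same mouse-expanded antichymotrypsin group, was dimmer, at 3.30, 3.28, 3.09 and 3.18 in yDucts and 3.42, 3.18, 3.27 and 3.0 in Ducts, against 4.39, 4.63, 4.66 and 4.28 in Acini. Organoid arrays lay around the 30th percentile, and none overlapped Acini. The difference was -1.28 ± 0.14 (SE; adjusted p = 4.07e-06) in yDucts and -1.27 ± 0.14 (adjusted p = 4.35e-06) in Ducts. Together with Serpina10 and Serpina3n, it made up the 3 clade A falls in each comparison that were called under quantile normalization and under cyclic loess.

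Serpina11, one of the 3 brightest clade A genes on these arrays, read 4.36, 3.99, 4.09 and 4.02 in yDucts and 4.08, 4.04, 4.44 and 4.36 in Ducts, against 5.35, 5.52, 4.24 and 4.63 in Acini. The groups overlapped through Acini C. Its differences of -0.82 (adjusted p = 0.00938) and -0.71 (adjusted p = 0.0211) were not called after quantile normalization, with adjusted p = 0.0586 and 0.0926, and that of Ducts was not called without Acini A (-0.57), Acini B (-0.51) or the pair Ducts A and B (-0.54, adjusted p = 0.138).

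Serping1, the C1 inhibitor that restrains complement and the contact system, had the second deepest fall outside clades A and B. It stood at 4.04, 3.53, 4.53 and 4.14 in yDucts and at 3.59, 3.38, 3.42 and 3.14 in Ducts, against 8.42, 8.74, 8.70 and 7.72 in Acini. Organoids and Acini were widely apart, and 3 yDucts arrays were above all Ducts arrays. The fall was 20.2-fold in yDucts (-4.34 ± 0.25, SE; adjusted p = 1.27e-08) and 32.3-fold in Ducts (-5.01 ± 0.25, adjusted p = 3.35e-09).

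Serpinf1 (pigment epithelium-derived factor), an anti-angiogenic serpin that no longer inhibits proteases, had 5.40, 5.49, 5.25 and 5.22 in yDucts and 5.37, 4.80, 5.0 and 5.02 in Ducts, against 6.77, 7.4, 7.04 and 6.56 in Acini. The groups did not overlap with Acini. The difference was -1.60 ± 0.19 (SE; adjusted p = 6.57e-06) in yDucts and -1.90 ± 0.19 (adjusted p = 1.54e-06) in Ducts. Its other probe set read 2.58 to 2.89 in yDucts and 2.5 to 3.2 in Ducts, against 6.09 to 6.45 in Acini; both organoid means were below the 30th percentile, so that the fall there has only a lower bound.

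Stromal, endothelial and immune cells are among the usual sources of Serping1, Serpinf1 and Serpina3n, and the markers of these cells were also higher in Acini. Over all tested genes, 32.6% were lower than in Acini in yDucts and 33.1% in Ducts. All 10 stromal markers were lower in both organoid groups, their summed log2 level being 34.91 to 35.79 on yDucts and 34.88 to 36.07 on Ducts arrays, against 67.17 to 74.14 on Acini arrays; Col3a1 and Pdgfra were below the 30th percentile on every organoid array. All 9 endothelial markers were lower, with sums of 33.76 to 34.31 on yDucts, 32.21 to 35.20 on Ducts and 55.82 to 61.01 on Acini arrays. Of 9 tested immune markers 8 were lower and 1 higher, with sums over 10 genes of 40.55 to 41.76, 40.31 to 44.11 and 56.16 to 58.35 in the same order. All 7 endocrine markers were lower too, with sums of 23.92 to 24.64, 24 to 24.37 and 49.14 to 52.87. The part of these cells in the falls of the secreted serpins was not tested.

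Serpinh1 (Hsp47), the collagen chaperone of the endoplasmic reticulum, gave 7.19, 7.10, 7.10 and 6.60 in yDucts and 6.85, 6.62, 3.79 and 3.97 in Ducts, against 9.36, 9.53, 9.39 and 9.65 in Acini. Every organoid array was below Acini, and Ducts C and D lay far below the other organoid arrays. It was lower by -2.48 ± 0.59 (SE; adjusted p = 0.00188) in yDucts and -4.17 ± 0.59 (adjusted p = 3.12e-05) in Ducts. The difference of Ducts from Acini was -2.75 with Ducts C and D left out and -5.60 with Ducts A and B left out, called in both.

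The probe sets of Serpinh1 disagreed. The other one read 7.82, 7.68, 7.72 and 6.96 in yDucts and 6.87, 6.95, 3.12 and 3.30 in Ducts, against 6.04, 7.27, 7.13 and 6.60 in Acini. By this probe set yDucts were 0.79 above Acini, not below, and with the mean of both probe sets the fall in yDucts was -0.85 and not called (adjusted p = 0.274). Both placed Ducts C and D far below Ducts A and B. Of 18 tested collagen genes and collagen-modifying enzymes, 7 were higher and 10 lower in yDucts, and 6 higher and 11 lower in Ducts. The shares of all tested genes were 43.6% higher and 32.6% lower in yDucts, and 42.7% and 33.1% in Ducts. Col6a3 was lower by -4.63 and -4.59, whereas the prolyl hydroxylase subunit P4ha1 was higher by 2.56 and 2.74.

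**Figure D4:**
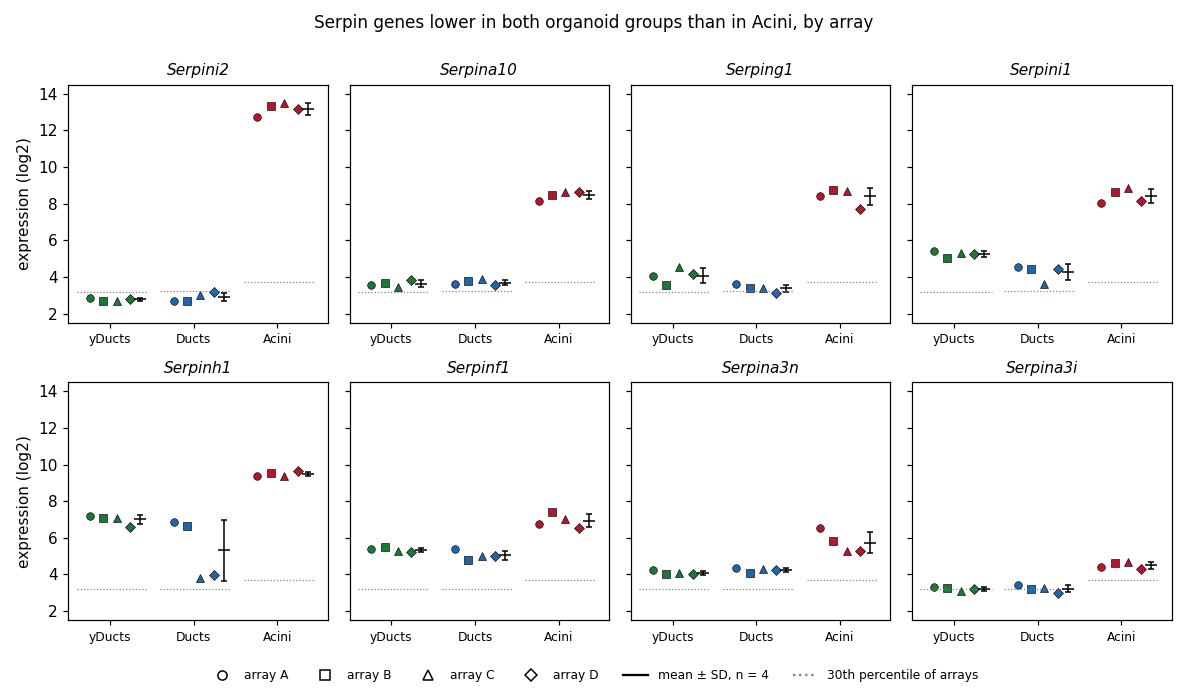
Log2 expression (y axis) of 8 serpins with lower values in both organoid groups, on the 4 yDucts, 4 Ducts and 4 Acini arrays (x axis), with mean ± SD and the 30th percentile (dotted). Serpini2 drops to below the dotted line in all 8 organoid arrays, and Serpinh1, shown by its brighter probe set, divides Ducts C and D (3.79 and 3.97) from Ducts A and B (6.85 and 6.62).

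Against Acini, 43.6% of all tested genes were higher and 32.6% lower in yDucts, and 42.7% and 33.1% in Ducts. Apart from the 18 genes described with their values, 11 more serpins were tested. Of these, 0 were higher, 7 lower and 4 not called in yDucts against Acini, with differences from -1.08 to 0.40, and likewise 0 higher, 7 lower and 4 not called in Ducts, from -0.99 to 0.27. They include plasma inhibitors of clotting and clot lysis: Serpinf2 (alpha-2-antiplasmin) fell by 1.0 in yDucts and by 0.97 in Ducts, Serpind1 (heparin cofactor II) by 1.08 and 0.60, and Serpinc1 (antithrombin) by 1.01 and 0.93. The call of Serpinc1 in yDucts ended on leaving out yDucts B (-0.92). In Ducts it ended on leaving out any 1 of 4 arrays, such as Acini B (-0.50). Without Ducts A and B, the Ducts differences of Serpind1 (-0.39, adjusted p = 0.0843) and Serpinc1 (-0.87, adjusted p = 0.102) were not called, nor was that of Serpinc1 without Ducts C and D (-0.99, adjusted p = 0.0733). Serpina12 (vaspin) fell by 0.94 and 0.93. Most of these are dim genes, read close to the percentile that differs between Acini and organoid arrays, and of these 4 only Serpinf2 was called in both comparisons under quantile normalization, cyclic loess and median centring.

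The 11 serpins that were not tested were above the 30th percentile on 0 to 3 arrays each. They were Serpina1f, Serpina4-ps1, Serpina5, Serpina6, Serpinb12, Serpinb3a, Serpinb6c, Serpinb7, Serpinb9c, Serpinb9d and Serpinb9g, and their highest value on any array was 5.36, for Serpina5 (protein C inhibitor) on Acini A.

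Between the organoid groups, few serpins differed. In yDucts against Ducts, 3 of the 29 were higher and 0 lower, where 2.15% of all tested genes were higher and 0.987% lower. At an unadjusted p under 0.05, 8 serpins were higher and 5 lower. The share of all tested genes at that looser threshold was not taken, so these counts cannot be set against 2.15% and 0.987%. The median difference was -0.01 over the serpins and -0.00 over all tested genes. The 3 genes were Serpina7, Serpina1c and Serpini1.

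Serpina7 (thyroxine-binding globulin), a plasma carrier of thyroid hormone encoded on the X chromosome, was read almost only in yDucts. Its level was 5.64, 6.55, 6.82 and 3.93 on yDucts A to D and 3.07, 2.01, 2.07 and 2.24 on Ducts A to D, against 2.47, 2.32, 2.39 and 2.58 on Acini A to D. The 4 yDucts arrays, of which D was the lowest, were the only ones above the 30th percentile, and no array of another group reached them. Since the gene passed the filter only through yDucts, it could enter the test only as a difference of this kind. It was at least 5.76-fold higher in yDucts than in Ducts (3.39 ± 0.49, SE; adjusted p = 0.00194) and at least 4.04-fold higher in yDucts than in Acini (3.29 ± 0.49, adjusted p = 5.18e-05). In Ducts against Acini both means were below the percentile, so no fold is given (difference -0.09, adjusted p = 0.872).

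The Serpina7 difference of yDucts from Ducts was 3.03 to 3.99 over the alternatives in which the gene was tested, and a filter at the 50th percentile leaves the gene out. Of 6 tested genes of other plasma proteins made by the liver, 5 were not called between yDucts and Ducts. The other, Fgb (fibrinogen beta chain), also entered the test only through yDucts, where it averaged 4.40 ± 1.05, beside 2.76 ± 0.15 in Ducts and 2.92 ± 0.26 in Acini (SD, n = 4 each), both below the 30th percentile. Summed over 7 such genes, the log2 level was 29.48 to 33.22 on yDucts, 25.47 to 30.10 on Ducts and 34.12 to 36.75 on Acini arrays.

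Serpina1c, a mouse paralogue of alpha-1-antitrypsin, read 4.92, 4.72, 3.74 and 5.31 in yDucts and 3.10, 2.98, 3.16 and 3.11 in Ducts, against 3.21, 4.22, 3.58 and 5.21 in Acini. yDucts were above all Ducts arrays, and Acini overlapped yDucts. It was at least 2.76-fold higher in yDucts than in Ducts (1.59 ± 0.39, SE; adjusted p = 0.0486), close to the threshold, and the call was lost after quantile normalization (adjusted p = 0.145) and on leaving out any of 9 single arrays. It was also lost with Ducts C and D left out (1.63, adjusted p = 0.185) and with Ducts A and B left out (1.54, adjusted p = 0.067). The alpha-1-antitrypsin genes of the mouse are nearly identical in sequence, so that a probe set named for one may read others. Against Acini, Ducts were lower by -0.97 (at least 1.80-fold, limma adjusted p = 0.0396). This was not called after quantile normalization or without either pair of Ducts arrays (adjusted p = 0.0965 and 0.119). Leaving out any 1 of 6 arrays, such as Acini D (-0.58), also ended the call. In yDucts the difference from Acini was 0.62, with an interval of -0.24 to 1.47.

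The difference of Serpini1 between yDucts and Ducts was 1.0 ± 0.23 (SE; 2.01-fold, adjusted p = 0.0349), from the array values given above. Every yDucts array was above every Ducts array, but the call was lost without Ducts C and D (difference 0.77, adjusted p = 0.166), on leaving out any 1 of 5 arrays, such as Ducts C (0.79, adjusted p = 0.0888), and under quantile normalization (adjusted p = 0.0501).

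For 4 further members the difference between the organoid groups exceeded 1.4 without a call. The estimates were 3.52 for Serpinb1a (95% interval 1.11 to 5.93, adjusted p = 0.131), 1.69 for Serpinh1 (0.42 to 2.96, adjusted p = 0.177), -2.01 for Serpinb9b (-3.37 to -0.64, adjusted p = 0.127) and -1.48 for Serpinb5 (-2.52 to -0.44, adjusted p = 0.142). Each of the 4 moved with the division of the Ducts arrays: without Ducts A and B, those of Serpinb1a, Serpinh1 and Serpinb9b were 6.08, 3.12 and -3.46 and were called, and without Ducts C and D that of Serpinb5 was -2.42 and was called. The opposite removals gave smaller differences that were not called, of 0.96 for Serpinb1a (adjusted p = 0.745), 0.26 for Serpinh1 (adjusted p = 0.94) and -0.56 for Serpinb9b (adjusted p = 0.745) without Ducts C and D, and of -0.55 for Serpinb5 (adjusted p = 0.446) without Ducts A and B. Just under 1.4 was Serpinb11, at 1.385 (interval 0.01 to 2.76, adjusted p = 0.359), for which Ducts A was far below the other Ducts arrays. Serpinb9 (1.20) and Serpina9 (-1.16) were not called either, both with adjusted p = 0.22. At the other end, Serpinb6b differed between yDucts and Ducts by -0.02 (interval -0.63 to 0.59) and Serpina10 by -0.06 (-0.39 to 0.28).

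**Figure D5:**
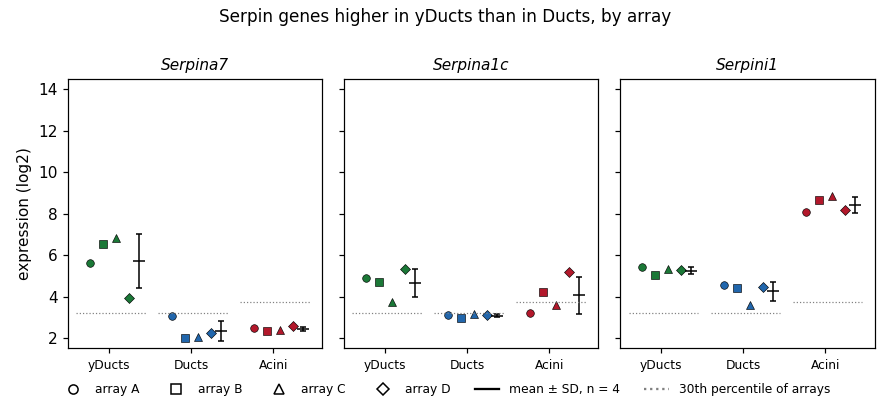
Log2 expression (y axis) of the 3 serpins called higher in yDucts than in Ducts, on the 4 arrays of each group (x axis), with mean ± SD and the 30th percentile (dotted). Serpina7 is above the dotted line only on yDucts arrays (3.93 to 6.82), Serpina1c overlaps between yDucts and Acini, and Serpini1 has separate ranges in all 3 groups.

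The genes with which serpins work are given from lists drawn up for this purpose. Among all tested genes, 43.6% were higher and 32.6% lower in yDucts than in Acini. In Ducts these shares were 42.7% and 33.1%, and counts near them are no result about a list. Of 9 tested genes of leukocyte and cytotoxic granules, most of them serine proteases, 7 were lower in each organoid group and 0 higher. Granzyme A (Gzma), a target of Serpinb6b in mice, was lower by -1.24 in yDucts and -0.97 in Ducts. Cpa3, a mast cell carboxypeptidase and not a serine protease, was lower by -1.52 and -1.46. Gzma averaged 2.94 in yDucts, 3.21 in Ducts and 4.18 in Acini, and Ducts overlapped Acini. Cpa3 averaged 3.03 in yDucts and 3.085 in Ducts. Both Cpa3 means and the yDucts mean of Gzma were below the percentile of the filter. The falls were at least 1.98-fold for Gzma in yDucts, and at least 2.55-fold and 2.53-fold for Cpa3. Dim genes read higher on Acini arrays, and the part of this in the 7 falls was not tested. Of 15 genes of plasminogen activation and clot lysis, 8 were higher and 5 lower in each; tissue plasminogen activator (Plat), a target of Serpini1, was higher by 4.64 in yDucts and 2.67 in Ducts, and Anxa2, which binds plasminogen and its activator at the cell surface, by 4.84 and 3.67, while vitronectin (Vtn) was at least 146-fold and 148-fold lower. Of 10 lysosomal cathepsins, 7 were higher and 2 lower in yDucts, and 6 higher and 2 lower in Ducts, led by Ctsh with 4.36 and 4.48. Of 11 membrane serine proteases, 2 were higher and 5 lower in yDucts, and 3 higher and 5 lower in Ducts.

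Protease inhibitors of other families likewise included large gains and large falls. Of 24 tested, 8 were higher and 10 lower in yDucts against Acini, and 7 higher and 11 lower in Ducts. The shares of all tested genes were 43.6% higher and 32.6% lower in yDucts, and 42.7% and 33.1% in Ducts. The trypsin inhibitor Spink1, which acinar cells package with trypsinogen, was lower by -10.07 in yDucts and -10.27 in Ducts, next to the fall of Serpini2, whereas the WAP-domain gene Wfdc2 was higher by 6.99 and 7.06 and Spink4 by 5.88 and 5.49. Between yDucts and Ducts, 3 of the 24 were higher and 0 lower, where 2.15% of all tested genes were higher and 0.987% lower. The 3 included the tissue factor pathway inhibitor Tfpi (1.28, adjusted p = 2.94e-04) and cystatin C, Cst3 (1.1, adjusted p = 8.57e-04). Of 5 serpin clearance receptors, 3 were higher and 1 lower in each organoid group, among them Vldlr, higher by 1.75 and 1.78.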

How the data were processed

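The authors deposited log2 expression values of 45101 probe sets on 12 mouse Affymetrix arrays, made with RMA (background correction, normalization and probe summary) per the labels; the sources used here do not say whether all arrays were normalized together, and the number of arrays limits the precision. Gene names came from the platform annotation, and 932 probe sets with several symbols and 9211 with none were not used. Each gene was represented by its brightest single-symbol probe set. Genes that at least 4 arrays read above their 30th percentile were fitted with limma 3.58.1 in R 4.3.3 (group means over all 12 arrays, eBayes, two-sided, Benjamini-Hochberg over 14991 genes), which was tested on simulated data. "At least" folds are given where a group mean lay below that percentile, and raise each array of that group that reads below its own percentile to it. Named members were the 8 largest called changes each way in each comparison, Serpina7 and the 3 brightest of each clade. The members, lists and markers were chosen with earlier results of these data known, and lists are described by counts only.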

Additional observations from a re-analysis of the deposited data

Results flagged for a closer look

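Of 54 groups of 4 arrays looked at, over the named serpins, 1 array stood apart from the other 3 in 5, judged by its gap to the nearest array as a share of the group's range; chance alone gives such a case in about 1 in 20 groups. yDucts B was the low array for Serpinb6b, at 9.24 against 10.39 to 10.58 on the other yDucts arrays, and for Serpinb9, at 8.69 against 10.88 to 11.13. yDucts D was low for Serpinh1, at 6.60 against 7.10 to 7.19. Ducts C was low for Serpini1, at 3.59 against 4.43 to 4.54. Acini C was low for Serpinb9b, at 4.92 against 5.90 to 6.04. The effect against Acini differed between yDucts and Ducts for 3 members in the limma test of that difference, which equals yDucts minus Ducts: by 3.39 for Serpina7, 1.59 for Serpina1c and 1.0 for Serpini1. Serpina7 entered the test only through yDucts. The call of Serpina1c was lost on leaving out any of 9 single arrays, and that of Serpini1 on leaving out any of 5.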

How the results depend on the processing

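Each of the 49 called differences kept its direction and call in the fit with an intensity trend and robust moderation, and 48 did so without the filter on dim probe sets. Cyclic loess turned Serpina3a in yDucts against Acini to 0.081 and kept 35 calls; quantile normalization kept 34 and median centring 39. With the probe set of largest interquartile range, Serpinb8 in yDucts against Acini was 0.38. The cause of these changes was not tested. Counts of serpins lower than in Acini were 10 in yDucts with the filter at the 50th percentile, where 20 members were tested, and 11 in Ducts under cyclic loess. Over all genes, the same settings gave 2938 lower of 12211 tested and 5475 lower of 14971. For yDucts against Ducts, 1 serpin was higher under quantile normalization, 10 with array weights and 1 without Ducts C and D; the count ran from 1 to 4 when single arrays were left out, and was 1 without Ducts C, Ducts D, yDucts A or yDucts D. The count lower was 5 with array weights, 1 without Ducts C and D, 4 without Ducts A and B, and 0 to 2 with single arrays left out (2 without Ducts A or Ducts B). The labels do not say whether a letter pairs arrays of different groups. Same-lettered arrays of different groups deviated with correlations of -0.35 to 0.13, and differently lettered ones with -0.37 to 0.37. These values cannot decide the question, as deviations of Ducts arrays also carry the division of Ducts C and D from A and B. With the letter as a replicate block, 6 serpins were higher and 16 lower in yDucts against Acini, and 2 higher in yDucts against Ducts. Over all genes, the counts were 6472 higher and 4794 lower, and 271 higher. This fit kept 48 of 49 calls, Serpini1 in yDucts against Ducts being lost.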
